A study of Mus musculus with 2 samples.

Results

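Ctss/Wfdc17-high cells are the cells of the Jumonji library with the largest share of their RNA in 5 genes, Ctss, Wfdc17, Lilrb4a, Lsp1 and Slfn2. The Jumonji library came from mouse leukaemia cells that carry the MLL-AF9 fusion and the nuclease Cas9, together with a single guide RNA (sgRNA) against the Jumonji domain of Jmjd1c. A Renilla library came from the same kind of cell with a control sgRNA against Renilla, a luciferase that mouse cells lack. Both cultures were grown with mouse IL-3, and each condition was 1 library. RNA was counted as unique molecular identifiers (UMIs, tags that mark single RNA molecules) read at the 3′ end of transcripts. A barcode was kept when it had 500 detected genes or more and no more than 10% of its UMIs came from mitochondrial genes, which left 575 of 652 Jumonji and 608 of 651 Renilla barcodes, 1183 of 1303 in all. The score of a cell was the summed UMIs of the 5 genes divided by its total UMIs. The top 20% of the 575 kept Jumonji cells by that score, rounded down, are described below. They are set against the other 460 kept cells, called the remaining cells, and, as a second reference, against the Renilla cells. No cell barcode occurred in both libraries.

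MLL-AF9 is an oncogenic fusion that holds myeloid progenitors in a self-renewing state, and loss of that state is followed by features of monocytes, macrophages or granulocytes. Maturing myeloid cells generally leave the cell cycle, build lysosomes and antigen-presenting machinery, and replace the proteases of the early primary granules with later products. JMJD1C belongs to the JmjC family of histone demethylases, and IL-3 signals through a receptor pair that activates the factor STAT5.

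Cells of 1 library are not replicates, so no test was made and every comparison below describes these libraries. Levels are CPM, the UMIs of a gene summed over a group of cells, per 1000000 UMIs of that group. Ratios are log2 ratios of CPM with exact 95% intervals. All intervals given here cover counting error only and leave out the spread between cultures, guides and library preparations. The cells were chosen on the same UMIs, so a difference between the Ctss/Wfdc17-high and the remaining cells is a description of that choice. A gene with 0 UMIs in a group was set to a floor of 3 counts per group. Its ratio is then a floor value and no estimate, and its interval can reach past that value.

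The scores formed a continuous range with no gap at the cutoff. In Ctss/Wfdc17-high cells the score had a lowest value of 981, a median of 2769 and a highest value of 9933 CPM. In the remaining Jumonji cells the median was 155 and the highest value 977, and 35 of 460 cells scored 0. The last 3 cells inside the cutoff scored 1014, 986 and 981, and the first 3 outside it scored 977, 946 and 941. In the Renilla library 438 of 608 cells scored 0, the highest score was 1802, and 3 cells lay at or above the Jumonji cutoff, a share of 0.493% (exact Clopper-Pearson interval 0.102% to 1.44%). Cells at that level were few in the Renilla library.

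Ctss/Wfdc17-high cells were shallow. Their median depth was 13041 UMIs per cell, with quartiles of 9435 and 17152.5, and 3014 genes were detected. In the remaining Jumonji cells the median depth was 24357 UMIs, with quartiles of 18984 and 29166, and 4326.5 genes were detected, while the Renilla cells had 23528 UMIs and 4328 genes. The ratio of medians, Ctss/Wfdc17-high over remaining cells, was 0.535. The median mitochondrial share was 2.90% in Ctss/Wfdc17-high, 2.61% in remaining and 3.43% in Renilla cells. A doublet caller, Scrublet, marked 0 Ctss/Wfdc17-high, 4 remaining and 10 Renilla cells. In all, the Ctss/Wfdc17-high cells held 1572166 UMIs, 12.3% of the UMIs of the kept Jumonji cells, the remaining cells held 11237495, and the Renilla cells held 14418743. In CPM a gene can be higher with an equal number of UMIs per cell, since the mean total per cell was 13671 UMIs in Ctss/Wfdc17-high and 24429 in remaining cells. That shift is -0.84 on the log2 scale, so a log2 ratio of CPM between 0 and 0.84 is below 0 in UMIs per cell. Fewer RNA molecules per cell and a lower capture of RNA cannot be told apart here.

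**Figure D1:**
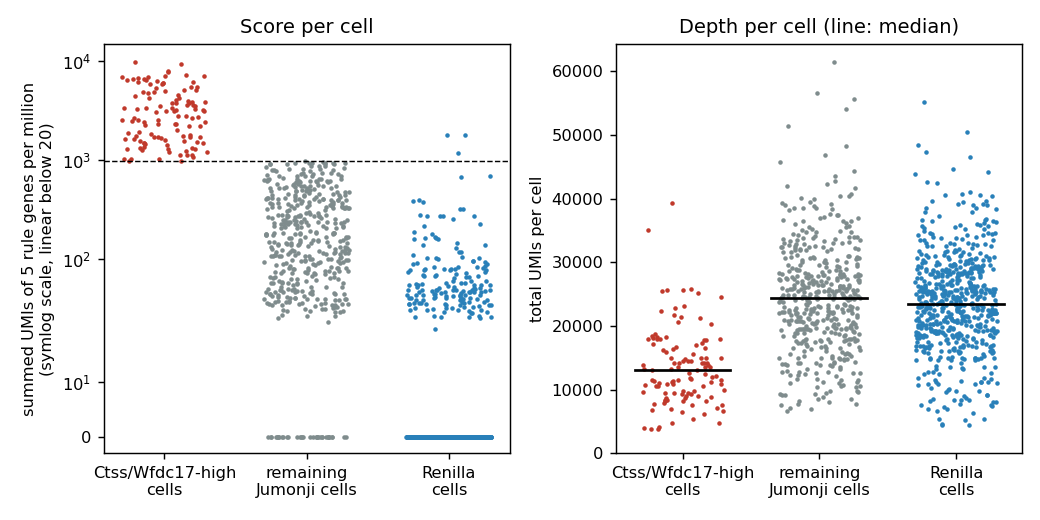
Each point is 1 cell of the Ctss/Wfdc17-high, remaining Jumonji and Renilla groups. The left panel gives the summed UMIs of the 5 rule genes in CPM (symlog axis, linear below 20) with the cutoff as a dashed line, and the right panel gives total UMIs per cell with the median as a bar. The scores run without a gap through the cutoff, and the medians of depth were 13041, 24357 and 23528 UMIs.

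The 5 genes that chose the cells are mainly products of mature phagocytes. Ctss encodes cathepsin S, a lysosomal cysteine protease that trims the invariant chain of MHC class II. It had 396 CPM in Ctss/Wfdc17-high cells (interval 365 to 428), against 18.2 CPM in remaining cells (15.7 to 20.8) and 4.51 CPM in Renilla cells. Wfdc17 encodes a small secreted protein of activated macrophages and had 1584 CPM in Ctss/Wfdc17-high cells, 98.8 CPM in remaining cells and 11.3 CPM in Renilla cells. Lsp1, an actin-binding protein of leukocytes, had 389, 36.9 and 6.38 CPM in the same order of groups. Slfn2, an interferon-inducible Schlafen gene linked to quiescence in mouse lymphocytes, had 263, 20.1 and 3.61 CPM. Lilrb4a, an inhibitory immunoglobulin-like receptor, had 302, 43.0 and 1.60 CPM. All 5 had their lowest level in the Renilla library and an intermediate one in the remaining Jumonji cells.

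Each of the 5 genes had a UMI in most Ctss/Wfdc17-high cells. The cells were chosen on these UMIs, so wide detection follows in part from the choice. Wfdc17 had a UMI in 114, Lsp1 in 111, Lilrb4a in 109, Ctss in 104 and Slfn2 in 100 of the Ctss/Wfdc17-high cells. To compare cells of unequal depth, 5000 UMIs were drawn at random from each cell, which left out 6 Ctss/Wfdc17-high, 0 remaining and 3 Renilla cells. After thinning, Ctss was seen in 74.3% of Ctss/Wfdc17-high, 7.61% of remaining and 1.49% of Renilla cells. Without thinning these shares were 90.4%, 23.9% and 5.10%. Wfdc17 was seen after thinning in 98.2%, 36.1% and 5.79% of those groups, and in 99.1%, 74.8% and 13.8% without it. When the cells were chosen on a random 50% of the UMIs and the genes measured on the other UMIs, 111 of the same cells were chosen again. The log2 ratios over the remaining cells were then 4.19 for Ctss, 3.82 for Wfdc17, 3.63 for Slfn2, 3.53 for Lsp1 and 2.74 for Lilrb4a, close to the 4.45, 4.003, 3.71, 3.40 and 2.81 measured on all UMIs.

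Per GENCODE M21 on the mm10 build, Ctss lies on chromosome 3 (95526786 to 95556403, plus strand), Wfdc17 on chromosome 11 (83703991 to 83706268, plus strand) and Slfn2 on chromosome 11 (83065112 to 83070678, plus strand). Lilrb4a lies on chromosome 10 (51480612 to 51496613, plus strand) and Lsp1 on chromosome 7 (142460809 to 142494867, plus strand). RefSeq's promoter table for GRCm38.p6, the same assembly, held 3 of the 5 genes. Their windows, 250 bases before to 50 after the start, are shown because these genes set the score. Capitals mark AGGAAGT on either strand (ACTTCCT on the other strand), a form of the ETS motif used by the myeloid factor PU.1, chosen with the sequences in view.

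Ctss, chr3:95526536-95526835, plus strand: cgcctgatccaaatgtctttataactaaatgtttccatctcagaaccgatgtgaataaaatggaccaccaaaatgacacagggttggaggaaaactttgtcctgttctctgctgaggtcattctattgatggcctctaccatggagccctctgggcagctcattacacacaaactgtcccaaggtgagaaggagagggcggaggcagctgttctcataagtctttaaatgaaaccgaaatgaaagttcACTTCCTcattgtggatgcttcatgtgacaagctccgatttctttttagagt

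Slfn2, chr11:83064862-83065161, plus strand: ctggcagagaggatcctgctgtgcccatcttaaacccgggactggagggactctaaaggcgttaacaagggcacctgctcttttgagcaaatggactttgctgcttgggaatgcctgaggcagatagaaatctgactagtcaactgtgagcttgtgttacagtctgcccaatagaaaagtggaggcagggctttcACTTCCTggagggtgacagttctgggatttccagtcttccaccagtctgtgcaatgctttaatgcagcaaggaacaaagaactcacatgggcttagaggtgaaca

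Wfdc17, chr11:83703806-83704105, plus strand: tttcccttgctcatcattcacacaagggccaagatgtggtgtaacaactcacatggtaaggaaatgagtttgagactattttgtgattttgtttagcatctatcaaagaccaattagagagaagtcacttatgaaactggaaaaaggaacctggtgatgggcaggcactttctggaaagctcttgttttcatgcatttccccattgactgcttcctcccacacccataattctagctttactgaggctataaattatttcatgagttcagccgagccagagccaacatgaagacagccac

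Ctss and Slfn2 each held 1 match, and Wfdc17 held none. The same letters occurred in 2886 of 27025 genes of the table, or 10.7%. Of the 15 genes named below as higher, 11 had an entry and 2, Mmp8 and S100a4, held a match. A match is a description of letters and no evidence of binding.

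At 2-fold more genes were lower than higher in Ctss/Wfdc17-high cells, and at 4-fold more were higher. Of 7414 genes with at least 100 UMIs over the 2 groups, the 5 rule genes left out, 416 were at least 2-fold higher in Ctss/Wfdc17-high cells, 5.61% of those measured, and 591 were at least 2-fold lower, 7.97%. At 4-fold the counts were 56 higher (0.755%) and 37 lower (0.499%). The median log2 ratio of all these genes was -0.12. Without the 3 Ctss/Wfdc17-high cells that hold most UMIs of each gene, 284 of the 416 were still 2-fold higher. Of the 591 lower genes 570 were still 2-fold lower, genes left with no UMI not counted. Leaving out the richest cells of a gene tends to lower its ratio, so these 2 numbers are not alike. Depth and cell cycle phase move with the score, so the counts were repeated within ranges of each, a choice made after seeing the data. Cells of like depth were 57 Ctss/Wfdc17-high against 71 remaining cells, with medians of 13041 and 13971 UMIs. Among them 2179 genes could be measured, and 89 (4.08%) were at least 2-fold higher and 121 (5.55%) at least 2-fold lower. Of the 416 higher genes 147 could still be measured there, all 147 were above 0 and 80 were still 2-fold higher. Of the 591 lower genes 80 could be measured, all 80 were below 0 and 58 were still 2-fold lower. These genes were picked by their ratios on cells that include these, so their kept direction is partly built in. The part of depth was not tested. Counted as mean UMIs per cell, 82 genes were at least 2-fold higher and 3475 at least 2-fold lower.

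The gene with the highest ratio, Cd74, rested on few cells. Cd74 encodes the MHC class II invariant chain, lies on chromosome 18 (60803848 to 60812652, plus strand) and had 97 UMIs in Ctss/Wfdc17-high cells, against 9 UMIs in remaining cells and 3 in Renilla cells. In CPM this was 61.7 (50.03 to 75.3), against 0.80 (0.37 to 1.52) in remaining cells, a log2 ratio of 6.27 (5.28 to 7.44). A UMI was seen in 19 cells (16.5% of Ctss/Wfdc17-high and 1.74% of remaining cells), and 3 cells held 82.5% of them. Without those 3 cells the log2 ratio was 3.79. Mmp8 encodes neutrophil collagenase, a secondary granule protease, on chromosome 9 (7558456 to 7568485, plus strand). It had 187 UMIs in 32 Ctss/Wfdc17-high cells (27.8%), 119 CPM, against 28 UMIs and 2.49 CPM in remaining cells and 0.35 CPM in Renilla cells, a log2 ratio of 5.58 (4.999 to 6.21) that stayed at 5.17 without its 3 highest cells.

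Ccl9, a CC chemokine made by macrophages and other myeloid cells, lies on chromosome 11 (83572919 to 83578636, minus strand). It had 337 UMIs in 50 Ctss/Wfdc17-high cells (43.5%) and 214 CPM (192 to 239), against 11.8 CPM (9.91 to 14.03) in remaining and 10.96 CPM in Renilla cells, a log2 ratio of 4.18 (3.89 to 4.48). Remaining Jumonji cells were thus near the Renilla level for Ccl9. Ckb, the brain-type creatine kinase, had 70.6 CPM in Ctss/Wfdc17-high, 2.76 CPM in remaining and 1.46 CPM in Renilla cells, a log2 ratio of 4.68 over remaining cells. S100a4, a calcium-binding protein of motile cells, had 143, 12.5 and 2.29 CPM in these groups, a log2 ratio of 3.51 over remaining cells. Bst1, also known as CD157 and a surface enzyme of myeloid cells, had 42.0, 3.03 and 0.28 CPM, a log2 ratio of 3.79.

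The other named higher genes had log2 ratios over remaining cells between 2.92 and 3.48. They were Fcgrt, the neonatal Fc receptor (63.6 CPM in Ctss/Wfdc17-high, 5.70 CPM in remaining cells), Lrp1, an endocytic receptor of macrophages (50.9 and 4.98 CPM), and Ifi27l2a, an interferon-induced gene (63.0 and 6.67 CPM). Tcf7l2, a transcription factor of the Wnt pathway, had 53.4 and 5.78 CPM. Ecm1, a secreted matrix protein, had 56.0 and 6.14 CPM. Lilr4b, a close relative of Lilrb4a whose identifier was not found in GENCODE M21, had 69.3 and 8.10 CPM. Dpep2, a dipeptidase that acts on leukotriene D4, had 80.1 and 9.79 CPM. Ctla2a, a cysteine protease inhibitor, had 118 and 15.2 CPM. Its log2 ratio of 2.95 was 2.40 without its 3 highest cells and 1.15 (0.62 to 1.69) among cells of like depth. Cyp4f18, a cytochrome P450 that acts on leukotriene B4, was the most widely shared, with a UMI in 91 Ctss/Wfdc17-high cells (79.1%) and 161 CPM, against 21.3 CPM in remaining and 4.44 CPM in Renilla cells.

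The 12 genes named as lower had log2 ratios between -4.10 and -1.99. Ms4a3, a membrane protein of granulocyte-monocyte progenitors on chromosome 19 (11629496 to 11640851, minus strand), had 15 UMIs and 9.54 CPM (5.34 to 15.7), against 163 CPM (156 to 171) in remaining cells and 564 CPM in Renilla cells, a log2 ratio of -4.10 (-4.94 to -3.37). Mpo, myeloperoxidase of primary granules on chromosome 11 (87793581 to 87804413, plus strand), had 8.27 CPM (4.40 to 14.1), against 76.8 CPM (71.8 to 82.1) in remaining and 607 CPM in Renilla cells, a log2 ratio of -3.22. For both genes the remaining Jumonji cells lay between the other 2 groups. Prg2 and Prg3, which encode eosinophil major basic proteins, had 3 and 9 UMIs in Ctss/Wfdc17-high cells, against 230 and 528 UMIs in remaining cells, log2 ratios of -3.42 (-5.71 to -1.86) and -3.04 (-4.17 to -2.10). The Renilla level of Prg2, 3.12 CPM, was near the 1.91 CPM of Ctss/Wfdc17-high cells and below the 20.5 CPM of remaining cells.

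BC100530 and Stfa1, stefin-type cysteine protease inhibitors of the granulocyte line on chromosome 16, had 91.6 and 54.7 CPM in Ctss/Wfdc17-high cells, against 461 and 287 CPM in remaining cells. Their copies are near-identical, so the split of reads among them is uncertain. Nkg7, a granule membrane protein, had a log2 ratio of -2.61 (-3.83 to -1.62). Traip, a ubiquitin ligase of the replication fork, had 1 UMI in Ctss/Wfdc17-high cells, against 117 in remaining cells, a log2 ratio of -4.03 with an interval from -9.35 to -1.53. Igfbp4, which binds insulin-like growth factors, had 49.6 CPM, against 210 CPM in remaining cells. Marcksl1, an actin-regulating protein, had 23.5 against 96.0 CPM, Odc1, the first enzyme of polyamine synthesis, 23.5 against 93.3 CPM, and Phgdh, the first enzyme of serine synthesis, 34.98 against 141 CPM in the same order.

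**Figure D2:**
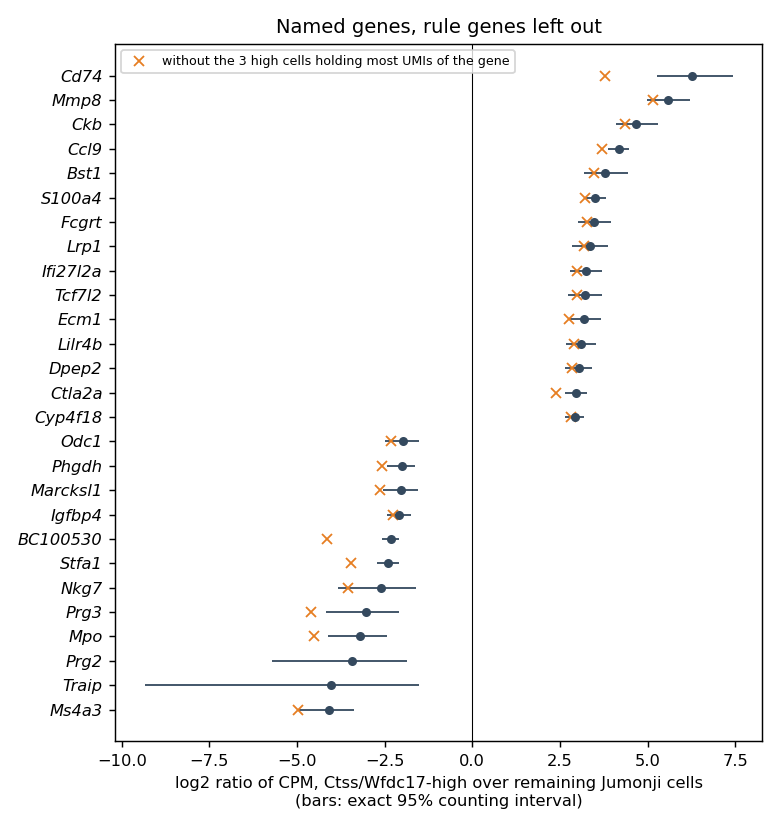
The 15 genes named as higher and the 12 named as lower, with the log2 ratio of CPM of Ctss/Wfdc17-high over remaining Jumonji cells and its exact 95% counting interval. Crosses give the ratio without the 3 Ctss/Wfdc17-high cells that hold most UMIs of that gene (none is drawn for Prg2 and Traip, which keep no UMI), and Cd74 moves from 6.27 to 3.79.

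Gene lists were read by how many members were at least 1.5-fold apart and by their median, with at least 50 UMIs over both groups. "Higher" and "lower" are in CPM throughout. With the rule genes left out, 25 lists had a median above 0 in CPM, and 17 of these were below 0 in UMIs per cell. The other 8 were monocyte and macrophage, dendritic and MHC class II, megakaryocyte, paired receptor, cytokine, integrin and motility, interferon response and colony-stimulating factor receptor genes. Over all 8856 genes at that minimum, 15.4% were at least 1.5-fold higher and 22.5% at least 1.5-fold lower in Ctss/Wfdc17-high cells, and the median log2 ratio was -0.10. Values without the rule genes are given in the text where a list holds one, and the drawn medians keep the rule genes. For each list the median among cells called in G1 on both sides, 81 Ctss/Wfdc17-high and 78 remaining cells, is drawn beside the median over all cells.

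Monocyte and macrophage genes were higher. Of 18 measured, 13 were at least 1.5-fold higher and 0 lower, with a median of 1.51 over all cells and 1.28 among G1 cells. The chemokine receptor Ccr2 had 48.3 CPM in Ctss/Wfdc17-high, 6.23 CPM in remaining and 25.3 CPM in Renilla cells. Csf1r, which encodes the M-CSF receptor, had 53.4, 7.12 and 1.80 CPM in that order. Cd68, a lysosomal membrane glycoprotein, had 97.3, 13.9 and 9.36 CPM. Lgals3, the lectin galectin-3, had 1370, 256 and 55.3 CPM, and Lyz2, lysozyme, had 527, 139 and 64.2 CPM. At the other end Fcgr1, the high-affinity IgG receptor, had a log2 ratio of -0.52 (-1.57 to 0.37), and Tlr4, the endotoxin receptor, one of 0.24 (-0.66 to 1.03). The list held 37 identifiers, and 11 had 0 UMIs in Ctss/Wfdc17-high cells: Apoe, C1qa, C1qb, C1qc, Cd163, Cx3cr1, F13a1, Klf4, Marco, Mrc1 and Vcan. The complement and scavenger genes that define tissue macrophages were thus not detected at this depth. Nor were the monocyte genes Cx3cr1, F13a1, Klf4 and Vcan, and no cell type name is given.

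Without Ctss, 12 of 26 lysosome and cathepsin genes were at least 1.5-fold higher and 1 lower, with a median of 0.50, which was -0.34 in UMIs per cell. Psap, the precursor of the saposins, had a log2 ratio of 1.82 (1.66 to 1.97), Grn, progranulin, of 1.55 and Ctsd, cathepsin D, of 1.46. The 1 lower gene was Cd63, a tetraspanin of granule and lysosome membranes, with 747 CPM in Ctss/Wfdc17-high and 1487 CPM in remaining cells. Without Lilrb4a, 11 of 15 paired immunoglobulin-like and CD200 receptor genes were higher and 1 lower, with a median of 1.29. Pira2, an activating receptor, had 278 CPM in Ctss/Wfdc17-high cells, 56.2 CPM in remaining cells and 4.02 CPM in Renilla cells. Pirb, its inhibitory counterpart, had 153, 40.0 and 4.16 CPM, and Cd200r4 had 129, 18.6 and 1.25 CPM. These receptor genes are near-identical copies, so single members are uncertain. Clec12a, an inhibitory lectin, was the lower one, with a log2 ratio of -0.84 (-1.43 to -0.31).

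Fc receptors and their adaptors were higher in 8 of 16 and lower in 0, with a median of 0.62. Hcst, the adaptor DAP10, had a log2 ratio of 1.97 and Tyrobp, the adaptor DAP12, of 0.98. In UMIs per cell that list had a median of -0.22, and Tyrobp had 79.4 UMIs per Ctss/Wfdc17-high cell and 72.1 per remaining cell. Of 8 subunits of the phagocyte NADPH oxidase 2 were higher and 0 lower, with a median of 0.39 (-0.45 in UMIs per cell), and Cybb, its catalytic subunit, had a log2 ratio of 2.10 (1.68 to 2.52).

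Cytokine genes were higher in 6 of 8 and lower in 1, with a median of 1.93. Among cells of like depth 1 of 5 measured, Ccl9, was higher and 0 lower, with a median of 0.57. Among G1 cells 6 of 6 were higher, with a median of 1.28. Beside Ccl9, the chemokines Ccl3 and Ccl6 had 77.6 and 139 CPM in Ctss/Wfdc17-high cells, against 16.4 and 34.8 CPM in remaining cells. Osm, the cytokine oncostatin M, had a log2 ratio of 2.28, and Il1rn, the IL-1 receptor antagonist, of 1.86. The lower one was Tnf, with 2 UMIs in Ctss/Wfdc17-high and 53 in remaining cells, a log2 ratio of -1.89 (-4.97 to 0.03). Without Lsp1, 15 of 24 genes of integrins and motility were higher and 0 lower, with a median of 0.85. Ahnak, a large scaffold protein, had 24.8 against 1.51 CPM, and Itgb7, the integrin β7 chain, 189 against 31.9 CPM. Anxa2, annexin A2, had a log2 ratio of 1.997.

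Antigen presentation and interferon response genes were higher as lists. For MHC class I and peptide loading, 8 of 12 were higher and 0 lower, with a median of 0.80, which was -0.035 in UMIs per cell. Among cells of like depth 2 of 10 measured were higher and 0 lower, with a median of 0.51. H2-T23, a non-classical class I gene, had a log2 ratio of 1.40 and Tapbp, tapasin, of 1.24. For dendritic and MHC class II genes 5 of 5 measured were higher, Cd74 and Irf8 most and H2-DMa and H2-DMb1, which load class II peptides, at 1.15 and 0.71. The class II genes themselves had few UMIs: H2-Ab1 had 14 in Ctss/Wfdc17-high and 3 in remaining cells, H2-Aa had 4 and 5, and H2-Eb1 had 0 in Ctss/Wfdc17-high cells. Ciita, the master regulator of class II genes, Itgax, Zbtb46 and 4 other markers of dendritic cells and their relatives (Ccr7, Cd209a, Klrd1 and Siglech) also had 0 UMIs in Ctss/Wfdc17-high cells. Without Slfn2, 8 of 12 interferon response genes were higher and 0 lower, with a median of 1.51. Zbp1, a nucleic acid sensor, had 28.0 CPM in Ctss/Wfdc17-high, 3.92 CPM in remaining and 0.49 CPM in Renilla cells. Ifitm1, a membrane protein that restricts viruses, had 2392, 752 and 219 CPM. Oas1a, another interferon target, had a log2 ratio of -0.09.

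Primary granule genes, made early in granulocyte maturation, were lower. Of 12 primary granule genes 7 were at least 1.5-fold lower and 1 higher, with a median of -1.34 over all cells and -1.37 among G1 cells. Among cells of like depth 4 of 9 measured were lower and 1 higher, with a median of -0.54. Elane, neutrophil elastase, had 277 CPM in Ctss/Wfdc17-high, 794 CPM in remaining and 1769 CPM in Renilla cells, and Prtn3, proteinase 3, had 373, 835 and 1721 CPM. Ctsg, cathepsin G, had 24.8, 95.7 and 560 CPM. The higher one was Cst7, cystatin F, an inhibitor of lysosomal cathepsins, with 381, 173 and 71.0 CPM. Neutrophil secondary granule and late genes had 7 of 20 higher and 8 lower, with a median of 0.04 over all cells, -1.28 among G1 cells and -1.81 among cells of like depth. Mmp8, Anxa1 (annexin A1, log2 ratio 2.03), Lyz2, the G-CSF receptor Csf3r (1.22) and Mmp9 (gelatinase B, 1.18) were at least 2-fold higher. Without the 3 cells with most of its UMIs, Csf3r had 0.26 and Mmp9 0.42. S100a8, a calcium-binding protein of neutrophils and monocytes, had 319 CPM in Ctss/Wfdc17-high and 523 CPM in remaining cells, and among cells of like depth 144 and 2023 CPM. BC100530 had 49.2 CPM in Ctss/Wfdc17-high and 1528 CPM in remaining cells of like depth, so the shallower remaining cells were the richer in these late granulocyte genes. Cebpe, a transcription factor of secondary granule genes, had 219 CPM in Ctss/Wfdc17-high and 576 CPM in remaining cells. Chil3, a chitinase-like protein, had 1 UMI in Ctss/Wfdc17-high and 49 in remaining cells, a log2 ratio of -2.78 (-8.11 to -0.23). Camp, the cathelicidin, had 0 UMIs in Ctss/Wfdc17-high and 65 in remaining cells, a floor value of -1.60 for its log2 ratio. Ltf, Retnlg, Stfa2 and Itgb2l also had 0 UMIs in Ctss/Wfdc17-high cells. Summed over the list, the level was 3544 CPM in Ctss/Wfdc17-high, 3816 CPM in remaining and 1286 CPM in Renilla cells.

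Cell cycle and growth genes were lower. For S phase, 0 of 44 genes were at least 1.5-fold higher and 35 lower, with a median of -0.86 over all cells and -0.71 among G1 cells. For G2/M, 0 of 52 were higher and 41 lower, with medians of -0.99 and -0.75. Nasp, a histone chaperone, had 40.1 CPM in Ctss/Wfdc17-high and 130 CPM in remaining cells, and Cks1b, a subunit of cyclin-dependent kinases, had 108 and 353 CPM. Ribosome biogenesis genes were lower in 25 of 26, with a median of -1.13, and the nucleolar proteins Gnl3 and Ncl had log2 ratios of -1.82 and -1.41. The 35 cytosolic ribosomal protein genes had a median of -0.09, near that of all genes, and Rps2 was the 1 at least 1.5-fold lower, at -0.83. Of 18 G1 cyclins, CDKs and CDK inhibitors 7 were higher and 5 lower, with a median of 0.38 (-0.45 in UMIs per cell): Btg2, an antiproliferative gene, had a log2 ratio of 1.96 and Cdkn1b, the inhibitor p27, of 1.48, while Cdk4 had -1.06.

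Phase calls from S and G2/M scores, made after thinning each cell to 5000 UMIs, put 81 of 109 Ctss/Wfdc17-high cells in G1, or 74.3% (65.1% to 82.2%). In remaining cells 78 of 460 were called in G1, or 17.0% (13.6% to 20.7%), and in Renilla cells 53 of 605, or 8.76% (6.63% to 11.3%). Near the boundary of that call lay 10 Ctss/Wfdc17-high, 40 remaining and 50 Renilla cells. At 10000 UMIs the shares were 63.3%, 18.1% and 9.67%, with 36 Ctss/Wfdc17-high cells below that depth, and without thinning they were 73.0%, 17.8% and 8.22%. With G1 cells only on both sides, 144 of 2800 genes (5.14%) were at least 2-fold higher and 82 (2.93%) at least 2-fold lower. Of the 416 higher genes 200 could be measured there, all 200 were above 0 and 132 were still 2-fold higher. Of the 591 lower ones 108 could be measured, all 108 were below 0 and 55 were still 2-fold lower. Here too the genes were picked on cells that include these, so the kept direction is partly built in. The part of the cell cycle was not tested.

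Metabolic genes differed by pathway. Of 17 serine synthesis and ATF4 response genes 12 were at least 1.5-fold lower and 3 higher, with a median of -0.78. Beside Phgdh, the serine and one-carbon enzymes Psat1 and Shmt2 had log2 ratios of -1.36 and -1.65, and Cth, cystathionine γ-lyase, had 1 UMI in Ctss/Wfdc17-high and 69 in remaining cells. The 3 higher ones were the stress genes Sesn2 (1.49), Ddit4 (1.02) and Ddit3 (0.87). Of 23 oxidative phosphorylation genes 8 were lower and 0 higher (median -0.39), and of 20 glycolysis genes 5 were higher and 0 lower (median 0.25, and -0.59 in UMIs per cell). Pdk1, which restrains entry of pyruvate into mitochondria, had the highest ratio of the glycolysis list, 0.98, and Ldha, lactate dehydrogenase, had 780 CPM in Ctss/Wfdc17-high and 777 CPM in remaining cells.

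Of the 7 measured genes of the IL-3 and colony-stimulating factor receptors, 5 were at least 1.5-fold higher and 1 lower, with a median of 1.08. Il3ra, the IL-3 receptor α chain, had 117 CPM in Ctss/Wfdc17-high, 52.6 CPM in remaining and 46.0 CPM in Renilla cells. Csf2rb, the shared β chain on chromosome 15 (78325752 to 78353847, plus strand), had 150 CPM (132 to 171), 112 CPM (106 to 118) and 35.2 CPM, or 2.05 UMIs per Ctss/Wfdc17-high cell and 2.74 per remaining cell, and its close copy Csf2rb2 had 37.5, 17.8 and 4.85 CPM. The lower one was Kit, the receptor for stem cell factor, with 8 UMIs in Ctss/Wfdc17-high and 137 in remaining cells. STAT5 targets were higher in 10 of 16 and lower in 1 (median 0.81), among them Cish, a feedback inhibitor, at 177 against 67.8 CPM, and Ccnd2, cyclin D2, at 260 against 106 CPM. That list had a median of -0.030 in UMIs per cell. BCL2 family genes were higher in 7 of 14 and lower in 0 (median 0.60, and -0.24 in UMIs per cell), led by the prosurvival paralogs Bcl2a1d and Bcl2a1a at 1.57 and 1.29. Targets of p53 were higher in 9 of 14 and lower in 2, with a median of 0.71 over all cells, 0.20 among G1 cells and -0.13 in UMIs per cell.

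Leukaemia programme genes lay near the median of all genes, and stem and progenitor markers lay below it. Of 23 leukaemia programme genes 5 were higher and 4 lower, with a median of 0.02. Hoxa9, which MLL fusions activate, had 203 CPM in Ctss/Wfdc17-high, 170 CPM in remaining and 209 CPM in Renilla cells (2.77 UMIs per Ctss/Wfdc17-high cell and 4.15 per remaining cell), and its partner Meis1 had 153, 97.6 and 107 CPM (2.09 UMIs per Ctss/Wfdc17-high cell and 2.38 per remaining cell). Both genes are given here after their values were seen. Gfi1, a transcriptional repressor, had 9 UMIs in Ctss/Wfdc17-high and 180 in remaining cells, a log2 ratio of -1.48 (-2.64 to -0.53). Among stem and progenitor markers 2 of 11 were higher and 5 lower, with a median of -0.33. Cd34, a marker of progenitors, was one of the higher, with 966 CPM (918 to 1016) in Ctss/Wfdc17-high, 532 CPM (519 to 546) in remaining and 333 CPM in Renilla cells, and Cd48 was the other, at a log2 ratio of 1.54. In UMIs per cell Cd34 had 13.2 in Ctss/Wfdc17-high and 13.01 in remaining cells. Transcription factors of the myeloid lines were higher in 6 of 18 and lower in 3, with a median of 0.26 (-0.58 in UMIs per cell). Irf5 and Irf8, interferon regulatory factors of monocytes and dendritic cells, had 87.1 and 298 CPM in Ctss/Wfdc17-high, against 13.8 and 70.3 CPM in remaining cells. Klf2 and Klf6 had log2 ratios of 2.24 and 1.88, and Runx1 of 1.43.

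Jmjd1c itself (chromosome 10, 67096125 to 67256326, plus strand) had 142 CPM (124 to 162) in Ctss/Wfdc17-high, 108 CPM (102 to 114) in remaining and 140 CPM in Renilla cells. In UMIs per cell it had 1.95 in Ctss/Wfdc17-high and 2.63 in remaining cells, so its direction turns with the scale. These 3′ counts do not show whether a cell carries an edited Jumonji domain. Its relatives Kdm3a and Kdm3b had log2 ratios of 0.37 (-0.37 to 1.05) and 0.19 (-0.39 to 0.72). Of 16 JmjC and LSD1 demethylase genes 2 were higher and 1 lower (median 0.28, and -0.56 in UMIs per cell), the higher ones being Kdm6b at 1.23 and Kdm7a at 1.098.

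Marker lists of other cell types differed in direction. Lymphoid and erythroid markers were lower as sums in Ctss/Wfdc17-high cells than in either reference. Stromal, megakaryocyte and mast cell markers were higher as sums, the mast cell sum through Ccl9. Lymphoid markers had 10 of 13 at 0 and summed to 7.63 CPM in Ctss/Wfdc17-high, 32.1 CPM in remaining and 29.6 CPM in Renilla cells, with B and T cell markers (Cd79a, Ms4a1, Pax5, Cd3e, Cd3g and Cd8a) at 0 in Ctss/Wfdc17-high cells. Nkg7, the granule membrane protein named above, was the 1 lymphoid marker with at least 50 UMIs. It gave 5.09, 31.1 and 27.2 CPM of these sums, so their direction is that of Nkg7. Erythroid markers had 8 of 11 at 0, globins included, and summed to 19.7, 49.1 and 56.5 CPM. The 2 erythroid markers with at least 50 UMIs had log2 ratios of -1.74 and 0.57 over remaining cells. Stromal and endothelial markers had 6 of 12 at 0 and summed to 36.3, 23.4 and 17.2 CPM, and megakaryocyte markers had 3 of 9 at 0 and summed to 40.7, 18.5 and 7.84 CPM. Eosinophil markers had 4 of 11 at 0 and summed to 28.0, 92.8 and 37.7 CPM. Mast cell and basophil markers had 7 of 13 at 0, among them Mcpt8 and Fcer1a, and summed to 298, 143 and 161 CPM. Ccl9 alone gave 214 CPM of this in Ctss/Wfdc17-high cells, with a log2 ratio of 4.18 over remaining cells. The direction of the sum is thus that of Ccl9. Of 5 genes measured in this list 2 were higher and 2 lower, with a median of -0.33. Cpa3, a mast cell protease, had 39 UMIs in 11 Ctss/Wfdc17-high cells and a log2 ratio of 2.48, which was 0.53 without its 3 highest cells. The part of such cells in the results was not tested. Neat1 and Malat1, nuclear RNAs that are often high where cytoplasmic RNA is low, had log2 ratios of 1.90 and 1.28, and their part in the lower depth was not tested.

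Values against the Renilla library were also taken for both Jumonji groups. The 2 comparisons share the Renilla cells, so the medians are given side by side only. Monocyte and macrophage genes had a median log2 ratio of 2.32 for Ctss/Wfdc17-high over Renilla cells and 0.83 for remaining over Renilla cells. Paired immunoglobulin-like and CD200 receptors, Lilrb4a included, had 4.33 and 2.92, interferon response genes, Slfn2 included, 1.51 and 0.51, and ribosome biogenesis genes -1.57 and -0.35. S phase genes had -0.94 and -0.05, and primary granule genes -1.61 and -0.36. Over all genes the medians were -0.15 and -0.05.

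The named genes took different courses along the score. The kept Jumonji cells were put in 5 equal groups by score, the fifth being the Ctss/Wfdc17-high cells, with median depths of 25726, 26565, 23285, 18668 and 13041 UMIs. From low to high score, Lgals3 had 157, 166, 274, 494 and 1370 CPM, and Irf8 had 15.3, 61.5, 91.1, 132 and 298 CPM. Ms4a3 had 257, 187, 132, 41.2 and 9.54 CPM, and Elane had 1044, 882, 741, 394 and 277 CPM. Both pairs ran in 1 direction over all 5 groups. Cd34 had 441, 480, 557, 701 and 966 CPM, and Ncl had 497, 503, 415, 306 and 166 CPM. S100a8 did not follow them, with 316, 372, 582, 943 and 319 CPM. Its highest level was in the fourth group, just below the cutoff. Stfa1 was highest in the third group, with 255, 329, 332, 217 and 54.7 CPM. Depth was lower in each group from the third on, and its part in these steps was not tested.

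**Figure D3:**
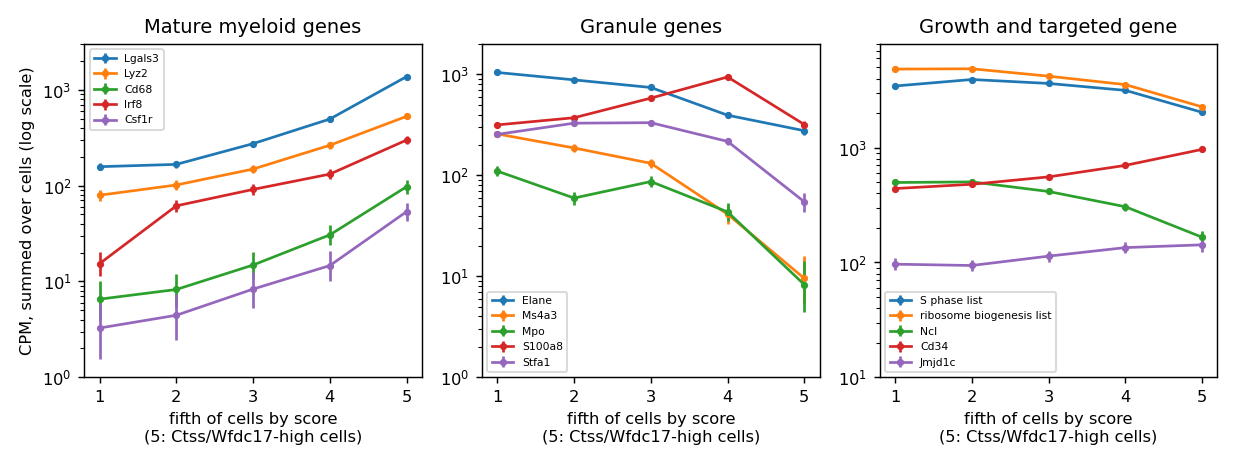
CPM, on a log axis, in 5 equal groups of kept Jumonji cells from lowest (1) to highest (5, the Ctss/Wfdc17-high cells) score, with exact 95% counting intervals. Mature myeloid genes run upward, and Elane and Ms4a3 run downward. Mpo, Ncl and the ribosome biogenesis list are lowest in the fifth group without falling at every step. Mpo has 59.6 CPM in the second and 86.8 CPM in the third group. S100a8 is highest in the fourth group at 943 CPM.

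The Ctss/Wfdc17-high cells were not uniform. Variation was measured from each cell's UMIs and the number its depth alone would give, as the squared difference divided by that number and averaged over the Ctss/Wfdc17-high cells, so that counting noise gives a value near 1. Over 3582 genes with at least 50 UMIs in these cells the median was 1.20. S100a9 had 95.9, with 220 UMIs in 10 cells and 95.9% of them in 3 cells, and S100a8 had 80.4, with 501 UMIs in 24 cells and 70.5% of them in 3 cells. Without those 3 cells each, the log2 ratio over remaining cells was -5.95 for S100a9 and -2.42 for S100a8, against -1.38 and -0.71 with them. A few S100a8/S100a9-rich cells therefore carry most of these UMIs. Cd74 had 38.3 and Lyz2 had 34.7, while Lyz2 had a UMI in 93 cells.

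The variable genes overlapped in part. Of the 19 cells with a Cd74 UMI, 11 also had Mmp8 and 13 had Ccl9, that is 57.9% and 68.4%. In the cells without Cd74 these shares were 21.9% and 38.5%. Cells with more UMIs have more chances to show any pair, so these shares are a description. S100a8 and Cd74 were seen together in 2 cells. When the kept Jumonji cells were ranked by S100a8 and S100a9 in place of the 5 genes, 12 of the top 20% were Ctss/Wfdc17-high cells, 10.4% of each set, and by Prg2 and Prg3 6 were, 5.22% of each set. Ctss/Wfdc17-high cells are 20% of the kept Jumonji cells.

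**Figure D4:**
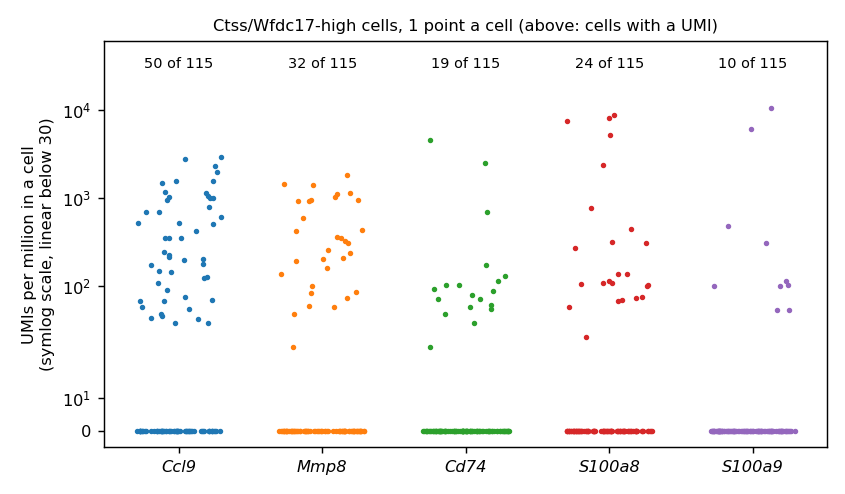
CPM of 5 variable genes in each Ctss/Wfdc17-high cell (symlog axis, linear below 30), 1 point a cell, with the number of cells holding a UMI above. Ccl9 was seen in 50 cells, Mmp8 in 32 and Cd74 in 19, and most S100a8 and S100a9 UMIs lie in a few cells.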

How the data were processed

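The deposited values are raw counts of UMIs per gene and cell barcode, 1 matrix per library. The 10x Genomics Chromium 3′ chemistry was version 2, per the labels' protocols. Cell Ranger 1.3.1 and the mm10 build were used, per the submitters' processing notes. For the annotation release and the calling of cell barcodes, the sources used here give nothing. Of 27998 gene identifiers 27722 were found in GENCODE M21, which gave the coordinates (1-based).

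UMIs were summed over groups of cells with numpy 2.4.6 and scipy 1.17.1. Ratio intervals come from the conditional binomial distribution. Scrublet and phase calls were run in scanpy 1.11.5. The scripts were tested on simulated data. Named genes are the 5 rule genes, the 15 higher and 12 lower genes with at least 100 UMIs that rank first by the bound of the interval on the side of 0, for each list the 2 highest and 2 lowest genes with at least 50 UMIs and those at least 2-fold apart, and Jmjd1c, Kdm3a, Kdm3b and Csf2rb. A few of these are given by range or are not reported here. The cells, gene lists (37 beside the rule genes) and rule were chosen with earlier results of these data known.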

Additional observations from a re-analysis of the deposited data

Results flagged for a closer look

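Of the 77 Jumonji barcodes left out for more than 10% mitochondrial UMIs, 39 lay at or above the score cutoff, a share of 50.6% (exact Clopper-Pearson interval 39.0% to 62.2%), against 20% of the kept cells by construction. This is signal in barcodes outside the comparisons above. Of the 43 Renilla barcodes left out in the same way, 0 lay at or above it (exact interval up to 8.22%), and the highest score there was 621 CPM. The 39 barcodes had a median of 4770 UMIs and a mitochondrial share of 15.2%. They had 487 CPM of Ctss, 2017 CPM of Wfdc17 and 315 CPM of Lilrb4a, against 396, 1584 and 302 CPM in kept Ctss/Wfdc17-high cells. Lsp1, Slfn2, Lgals3 and Mmp8 were lower there, at 83.6, 143, 330 and 14.8 CPM, against 389, 263, 1370 and 119 CPM in kept Ctss/Wfdc17-high cells. Mpo and Cd34 were higher, at 280 and 2794 CPM, against 8.27 and 966 CPM in kept Ctss/Wfdc17-high cells. In the 38 left-out barcodes below the cutoff, Mpo had 577 and Cd34 had 1844 CPM.

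BC100530 and Stfa1 had opposite directions in the 2 libraries when top-scored cells were set against the other cells. The difference was not tested. In the Jumonji library their log2 ratios of Ctss/Wfdc17-high over remaining cells were -2.33 and -2.39. When the Renilla cells were ranked by the same score, the top 121 cells over the rest had log2 ratios of 3.44 for BC100530 and 1.66 for Stfa1. The Renilla cells at the top held a median of 2 UMIs of the 5 genes, so that group is not a match for the Ctss/Wfdc17-high cells. From the lowest to the highest of the 5 score groups of Jumonji cells, BC100530 had 222, 386, 656, 650 and 91.6 CPM. Stfa1 had 255, 329, 332, 217 and 54.7 CPM in that order. Within the Jumonji library the direction of both genes thus turned along the score.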

How the results depend on the processing

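The 15 higher and 12 lower named genes kept their direction under every alternative that gave them a value. They were picked by their ratios on these data, and the alternatives share cells and UMIs with the main comparison. Their kept direction is therefore partly built in. Their sizes moved with depth in both directions. At like depth Ctla2a had 1.15 against 2.95 in the main comparison, Bst1 2.13 against 3.79 and Cyp4f18 1.96 against 2.92. Marcksl1 had -4.08 against -2.03 and BC100530 -4.96 against -2.33. Among cells of like depth Traip had 0 UMIs against 5, a floor value of -0.33 with an interval reaching 0.53. The 416 genes at least 2-fold higher became 166 with cells thinned to 5000 UMIs before scoring, 271 without cells below 10000 UMIs, 276 at a minimum of 200 UMIs and 3822 at a minimum of 1 UMI, of which 1834 have 0 UMIs in Ctss/Wfdc17-high cells and pass only through the floor of 3 counts. They became 89 among cells of like depth, which is 4.08% of the 2179 genes measured there. With G1 cells on both sides they became 144, or 5.14% of 2800 genes, and in mean UMIs per cell 82. In the main comparison the 416 were 5.61% of 7414 genes. The 591 lower genes became 1424 for the top 10% of cells, 208 for the top 30%, 337 with thinned cells, 249 without cells below 10000 UMIs, 1028 at a minimum of 1 UMI, 121 at like depth, 82 with G1 cells and 3475 per cell. The last 3 settings were added after seeing the data. The 121 and 82 lower genes were 5.55% and 2.93% of the genes measured there, against 7.97% in the main comparison. The number of genes measured also differs in some other settings and is not reported here. For the top 10% the share of Renilla cells at or above the cutoff was 0%, against 0.822% for the top 30%, the ratio of median UMIs was 0.464 and the G1 share 92.5%, and for the top 30% the G1 share was 60.2%. Without cells below 10000 UMIs that ratio was 0.653 and the G1 share 56.7%. With all deposited barcodes the ratio was 0.430, and with phases called at 10000 UMIs the G1 share was 63.3%. In mean UMIs per cell 17 of 25 list medians above 0 turned below it. Those past 1.5-fold in CPM became -0.035 for MHC class I, -0.22 for Fc receptors, -0.030 for STAT5 targets, -0.24 for the BCL2 family and -0.13 for p53 targets. The lymphoid list, with 1 gene measured at a median of -2.61, had 2.84 at a minimum of 1 UMI, which is the floor value of genes with 0 UMIs in Ctss/Wfdc17-high cells and no reversal. The other causes were not tested. Of the other values for lists and genes 1040 stayed within a set bound and 222 moved beyond it in the same direction or from an uncalled value. For a gene the bound was its counting interval. For a list it was the median of its genes' interval widths divided by 2, which is not the counting error of a list median. A minimum of UMIs leaves the ratio of a gene unchanged, so gene values at 200 and 1 UMI stayed by construction. No paired analysis was possible because each condition has 1 library. Depth limits rare genes: 3 counts are 1.91 CPM in Ctss/Wfdc17-high cells.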
